A study of Mus musculus with 12 samples.

Results

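Pericyte markers are 9 genes whose RNA is used to recognise pericytes, the mural cells that wrap capillaries and small venules. They are Rgs5, Rgs4, Cspg4, Mcam, Abcc9, Higd1b, Ndufa4l2, Vtn and Anpep. Members were chosen by gene symbol among the 36512 genes of the count table; 9 of 9 were found there, and all 9 had enough counts to be tested. The libraries came from CD-1 mouse pups of both sexes at age 3 days. Aorta was taken with the perivascular fat around it, and its cells were separated by flow cytometry. The labels name 4 populations, smooth muscle, intermediate, progenitor and preadipocyte, and each has 3 libraries. No allele, transgene or agent is named for any group, and no population carries the name pericyte. The gates are not in the labels, so it is unknown here whether the surface proteins made from Cspg4, Mcam or Anpep served in the sort, and a difference in a gate marker would be set in part by the design.

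Pericytes and vascular smooth muscle cells together form the mural layer of vessels. Both answer to vasoactive signals through G protein-coupled receptors, and both are held at the vessel by PDGF and Notch signals from endothelium. Few genes separate them cleanly: most pericyte markers are also transcribed in some smooth muscle cells, so the markers are usually read as a set beside contractile genes. Around the aorta of newborn mice, perivascular fat, adventitial fibroblasts and the muscle wall lie within a short distance of each other.

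Libraries held 11701825 to 17123109 counts, and 21285 genes were tested. Labels do not state separate litters or sorts for the replicates, so a p-value here measures the spread among these libraries, which may be technical. In such bulk RNA, fewer cells of a type and less RNA per cell cannot be told apart. Levels are CPM, a gene's share of the counts of its library, after TMM scaling, which evens out differences in library composition. TMM factors were 0.823 to 0.858 in intermediate and 1.17 to 1.20 in smooth muscle libraries, so the choice of scaling bears on this pair. The 15 contractile genes used to check the smooth muscle label summed to 10461 to 11295 CPM there, against 1570 to 2074 in intermediate, 337 to 385 in progenitor and 209.6 to 341 in preadipocyte libraries. Acta2 alone had a mean of 5335 CPM in smooth muscle libraries, while Tagln was at 9.23 ± 1.85 CPM (SD, n = 3). An antisense gene, Gm48529, covers 1241 of the 1988 exon bases of Tagln, and its part in that level was not tested.

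In intermediate against smooth muscle libraries, the comparison asked for here, the markers split. Rgs5, Rgs4, Cspg4, Mcam, Higd1b and Vtn were lower in intermediate libraries, by 1.70-fold for Rgs5 up to 9.14-fold for Cspg4. Anpep and Ndufa4l2 were higher, by 2.60-fold and 1.48-fold, and Abcc9 did not pass the test. Thus 8 of 9 members were called at an adjusted p under 0.05 by edgeR, where 28.8% of all genes tested were. By direction, 6 were lower in intermediate libraries, against a background of 15.7% of genes higher in smooth muscle, and 2 were higher, against 13.1%. The median log2 difference of the members was -1.17, beside -0.10 over all genes tested. Without intermediate replicate 2 or without intermediate replicate 3, 3 members passed as lower. Without smooth muscle replicate 1 or 2, 1 member passed as higher, and without intermediate replicate 2 the members called came to 5.

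**Figure D1:**
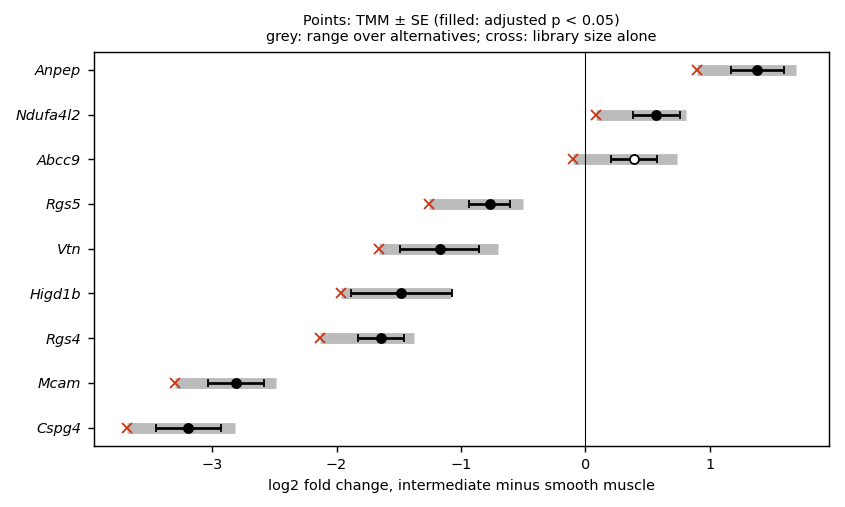
Log2 fold change of each of the 9 markers, intermediate minus smooth muscle, as points with SE (filled where the adjusted p was under 0.05), with the range over all alternatives in grey and library size alone as a cross. Cspg4 (-3.19) and Mcam (-2.81) lie farthest to the left and Anpep (1.38) farthest to the right. With library size alone Abcc9 crosses 0 and Ndufa4l2 comes close to it.

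Scaling by library size alone moved the median of all genes by -0.49 and the share of calls that were higher in intermediate libraries from 45.4% to 10.8%. It called 1133 genes higher and 9321 lower in intermediate libraries, of 21285 tested. Counts of gene lists with library size alone stand beside those. Read relative to the median gene, each member kept its sign under every alternative that tested it. Subtracting the median removes a shift shared by all genes. Agreement between scalings is therefore built in and does not show which scaling is right. On this scale Rgs5 stood at -0.67 (range -0.84 to -0.59), Rgs4 at -1.55 (-1.71 to -1.37), Cspg4 at -3.10 (-3.28 to -2.93) and Mcam at -2.71 (-2.89 to -2.61). The same quantity was -1.38 for Higd1b (-1.55 to -1.14) and -1.08 for Vtn (-1.37 to -0.82). On the other side it was 0.48 for Abcc9 (0.28 to 0.66), 0.66 for Ndufa4l2 (0.51 to 0.79) and 1.48 for Anpep (1.32 to 1.60).

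Rgs5 and Rgs4 encode regulators of G protein signalling of the small R4 family. Such proteins speed up GTP hydrolysis on G alpha subunits and so shorten the signal of receptors for vasoconstrictors, and Rgs5 is the most used single marker of pericytes in mouse. On mm10 the genes are neighbours on chromosome 1: Rgs5 runs from 169655501 to 169695813 on the plus strand and Rgs4 from 169741477 to 169747642 on the minus strand. They point towards each other across 45.7 kb, with 0 annotated genes between. Their promoters are shown because the pair shares a locus and both were highest in smooth muscle libraries. The 250 bases before each RefSeq start (GRCm38.p6) are chr1:169655251-169655500 on the plus strand for Rgs5 and chr1:169747643-169747892 on the minus strand for Rgs4. They are printed 5′ to 3′ on the gene's strand, with motif matches in capitals.
Rgs5: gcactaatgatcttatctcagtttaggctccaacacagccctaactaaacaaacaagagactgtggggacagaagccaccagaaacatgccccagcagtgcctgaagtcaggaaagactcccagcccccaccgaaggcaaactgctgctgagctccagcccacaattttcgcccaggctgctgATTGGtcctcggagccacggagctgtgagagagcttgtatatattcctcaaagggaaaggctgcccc
Rgs4: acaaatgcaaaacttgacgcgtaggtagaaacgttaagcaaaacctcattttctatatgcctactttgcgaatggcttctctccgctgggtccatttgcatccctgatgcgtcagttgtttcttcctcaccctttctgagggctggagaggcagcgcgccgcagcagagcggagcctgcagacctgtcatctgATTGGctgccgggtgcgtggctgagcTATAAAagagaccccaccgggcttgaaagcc
On both strands, 5 motifs were searched. The CArG box, bound by serum response factor, occurs in 1.47% of the 32851 RefSeq promoter windows of the same length. TGGGAA, the core bound by the Notch effector RBPJ, occurs in 21.6% of them. The hypoxia response core ACGTG is in 16.6%, the CCAAT box in 33.8% and the TATA sequence TATAAA in 12.4%. Both windows hold CCAAT on the opposite strand, printed as ATTGG, at 67 to 63 bases before the start in Rgs5 and 57 to 53 in Rgs4. Rgs4 also holds TATAAA at 31 to 26 bases before its start. The search took these exact letters, so the stretch tatatatt near the end of the Rgs5 window is unmarked. A match of letters is a description and shows no binding.

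Rgs5 was at 375, 316 and 321 CPM in the 3 intermediate libraries and at 523, 627 and 573 CPM in smooth muscle libraries. It was at 21.3, 21.95 and 16.7 CPM in progenitor and 9.61, 12.3 and 7.13 CPM in preadipocyte libraries. All 3 smooth muscle libraries were above all intermediate ones, and both populations were far above the other 2. The log2 difference of intermediate minus smooth muscle was -0.77 ± 0.17 (SE; edgeR adjusted p = 0.00225), and it missed the threshold without intermediate replicate 2 (edgeR adjusted p = 0.0765) or 3 (edgeR adjusted p = 0.0730). Against progenitor libraries, Rgs5 was 16.9-fold higher in intermediate and 28.8-fold higher in smooth muscle libraries. The order smooth muscle, intermediate, progenitor, preadipocyte held with every neighbouring pair called.

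Rgs4, which in mouse is best known from brain and heart and is also found in mural cells, stood at 90.4, 77.1 and 78.4 CPM in intermediate libraries. Smooth muscle libraries held 218, 311 and 238 CPM of it. Progenitor libraries were at 11.6, 14.2 and 15.8 CPM and preadipocyte libraries at 36.1, 35.4 and 22.5 CPM. No library of one population reached into another, and the order was smooth muscle, intermediate, preadipocyte, progenitor, with each neighbouring pair called. Intermediate libraries differed from smooth muscle by -1.64 ± 0.19 (edgeR adjusted p = 5.45e-06).

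A ratio of counts within a library does not depend on the scaling. There were 4.15, 4.10 and 4.09 counts of Rgs5 per count of Rgs4 in intermediate libraries, 2.40, 2.02 and 2.41 in smooth muscle, 1.83, 1.55 and 1.06 in progenitor and 0.266, 0.349 and 0.317 in preadipocyte libraries. The 4 populations did not overlap in this ratio, and intermediate libraries carried the most Rgs5 per Rgs4. A two-sided exact permutation test of 3 against 3 libraries cannot go below 0.1, so no p is given for ratios.

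Of the R4 family, 9 genes were listed and 7 were tested. Against smooth muscle, 5 were lower in intermediate libraries and 0 higher (15.7% and 13.1% of all genes), counting Rgs5 and Rgs4. The counts were the same with library size alone. Rgs2, which acts on Gq signalling in vascular smooth muscle, was at 49.4 ± 4.05 against 88.5 ± 10.6 CPM (SD, n = 3), with an edgeR adjusted p of 0.000165. Rgs16 was at 19.5 ± 3.80 against 32.8 ± 2.07 CPM, and was highest in progenitor libraries at 81.2 ± 8.92 CPM. Rgs8 was at 1.02 ± 0.511 against 3.07 ± 0.592 CPM. Rgs3 did not pass the test at 32.5 ± 3.23 against 26.0 ± 3.50 CPM.

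**Figure D2:**
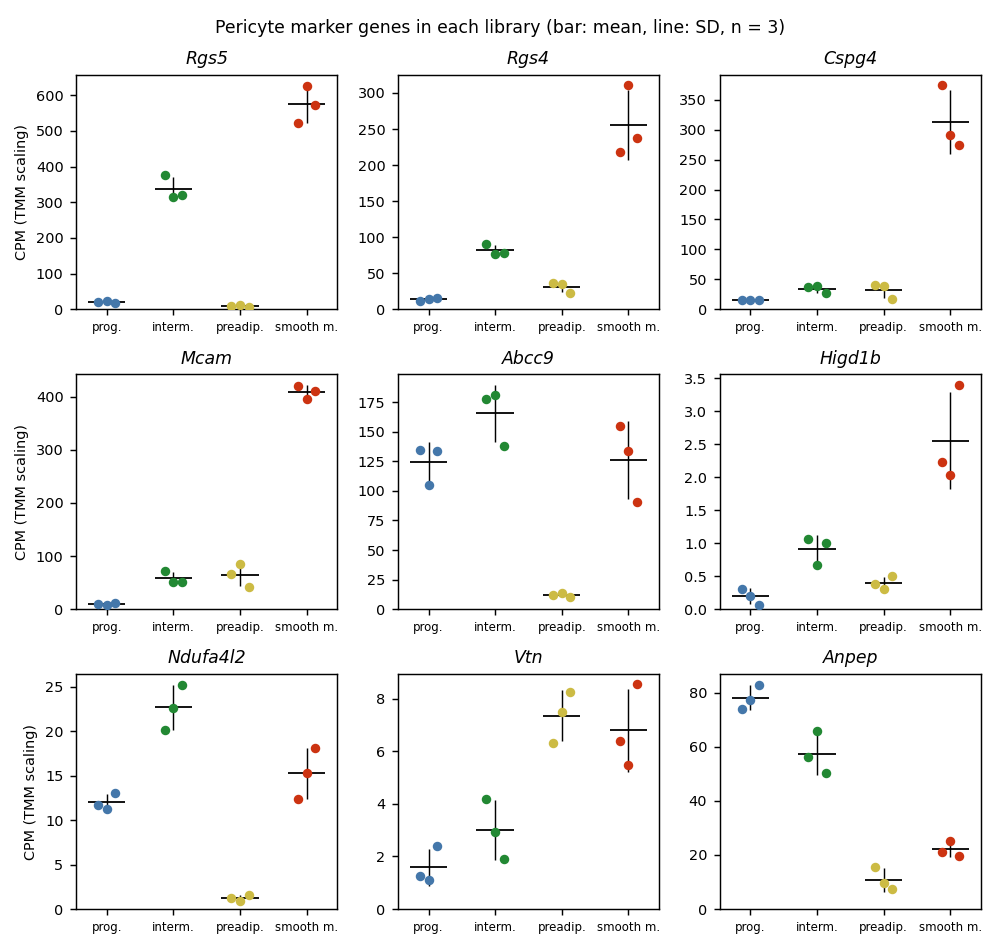
CPM after TMM scaling of each marker in the 12 libraries, one panel per gene with its own axis from 0, points for libraries, bars for the mean and lines for the SD (n = 3). By mean, Rgs5, Rgs4, Cspg4, Mcam and Higd1b are highest in smooth muscle libraries. Abcc9 and Ndufa4l2 are highest in intermediate, Vtn in preadipocyte and Anpep in progenitor libraries. Abcc9 overlaps between intermediate and smooth muscle libraries, and by library size alone its log2 difference turns to -0.10. Ndufa4l2 overlaps between them by library size alone. Vtn overlaps between preadipocyte and smooth muscle libraries.

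Cspg4 and Mcam encode surface proteins by which mural cells are often sorted or stained. Cspg4 makes the proteoglycan NG2, which binds collagen VI and integrins, and Mcam makes the adhesion molecule CD146, which binds laminins and is also found on endothelial and Schwann cells. Both lie on chromosome 9 of mm10, Cspg4 from 56865033 to 56899870 and Mcam from 44134469 to 44142727, on the plus strand. Their promoters are shown as the pair with the largest differences between intermediate and smooth muscle libraries. The windows are chr9:56864854-56865103 and chr9:44134408-44134657 on the plus strand (RefSeq, GRCm38.p6). No capitals appear because none of the 5 motifs occurs in these windows. RefSeq places these starts downstream of the GENCODE gene starts, so 71 of the 250 bases for Cspg4 and 189 for Mcam lie inside the gene as GENCODE annotates it, against 0 for Rgs5 and Rgs4, and the windows of both pairs are alike only in lying before the RefSeq start.
Cspg4: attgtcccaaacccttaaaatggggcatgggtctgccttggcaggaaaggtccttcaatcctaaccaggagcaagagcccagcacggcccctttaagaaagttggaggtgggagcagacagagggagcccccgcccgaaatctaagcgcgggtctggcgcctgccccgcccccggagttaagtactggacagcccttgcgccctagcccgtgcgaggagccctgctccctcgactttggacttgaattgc
Mcam: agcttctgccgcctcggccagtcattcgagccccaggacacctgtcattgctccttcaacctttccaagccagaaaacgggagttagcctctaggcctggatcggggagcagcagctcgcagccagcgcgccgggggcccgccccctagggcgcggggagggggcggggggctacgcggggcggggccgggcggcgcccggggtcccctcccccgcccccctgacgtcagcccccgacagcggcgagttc
G and C make up 60.4% of the Cspg4 window and 73.6% of the Mcam window, against 53.6% in both Rgs windows. Of the other members, Abcc9, Vtn and Anpep also had RefSeq promoter entries, which makes 7 of 9. Their windows are not printed. Abcc9 held TGGGAA at 221 to 216 bases before the start and Vtn at 236 to 231. Vtn also held TATAAA at 137 to 132 on the opposite strand and at 135 to 130. Anpep held none of the 5 motifs.

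Cspg4 was at 37.2, 38.9 and 26.6 CPM in intermediate libraries and 374, 291 and 275 CPM in smooth muscle libraries. Preadipocyte libraries were at 41.3, 38.1 and 17.5 CPM and progenitor libraries at 16.1, 15.4 and 15.3 CPM. Smooth muscle libraries stood alone, while intermediate and preadipocyte libraries overlapped. The difference of intermediate minus smooth muscle was -3.19 ± 0.26 on the log2 scale (edgeR adjusted p = 1.57e-07). Between intermediate and preadipocyte libraries it was 0.08 ± 0.24 (edgeR adjusted p = 0.787).

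Mcam had a similar pattern, with 72.5, 51.2 and 51.4 CPM in intermediate libraries against 419.6, 395 and 411 CPM in smooth muscle libraries. It was at 65.8, 85.3 and 42.3 CPM in preadipocyte and 10.5, 8.41 and 12.2 CPM in progenitor libraries. Intermediate minus smooth muscle came to -2.81 ± 0.22 (edgeR adjusted p = 1.26e-07). Against preadipocyte libraries the intermediate libraries overlapped (-0.14 ± 0.21, edgeR adjusted p = 0.578), but with library size alone they were called lower at -0.57 (edgeR adjusted p = 0.0208). An annotated antisense gene, Gm10687, covers 17 of the 3350 exon bases of Mcam, and the use of strand in counting is not given in the sources used here.

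Intermediate libraries held 10.1, 8.13 and 12.05 counts of Rgs5 per count of Cspg4. The ratio was 1.40, 2.16 and 2.09 in smooth muscle, 1.32, 1.43 and 1.09 in progenitor and 0.233, 0.323 and 0.406 in preadipocyte libraries. Mcam per Cspg4 moved less, at 1.95, 1.32 and 1.93 in intermediate and 1.12, 1.36 and 1.50 in smooth muscle libraries, which overlapped. Progenitor libraries were the low end of that ratio at 0.547 to 0.798.

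**Figure D3:**
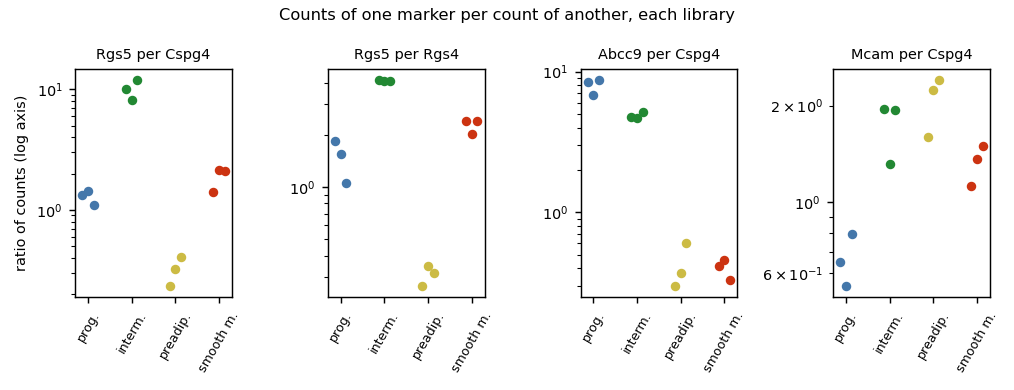
Ratio of the raw counts of 2 markers in each of the 12 libraries, 4 panels, log axes, points for libraries. Rgs5 per Cspg4 is 8.13 to 12.05 in intermediate and at most 2.16 in the other libraries, and Rgs5 per Rgs4 is 4.09 to 4.15 in intermediate and at most 2.41 elsewhere.

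Genes for binding partners of NG2 and CD146 went both ways. Of 9, 5 were lower and 2 higher in intermediate than smooth muscle libraries (15.7% and 13.1% of all genes). With library size alone these were 6 and 2. Lama5, a laminin chain of mature vessel basement membranes, was at 21.8 ± 8.30 against 246 ± 29.0 CPM. Itga3, an integrin subunit that binds laminins, was at 5.27 ± 0.899 against 89.3 ± 11.4 CPM, and Lgals3, the galectin-3 gene, at 1.46 ± 0.431 against 45.9 ± 19.3 CPM. Kdr and Gal3st1 were the other 2 that were lower. The collagen VI genes were higher instead: Col6a1 was at 3900 ± 128 against 1033 ± 22.4 CPM and Col6a2 at 2940 ± 52.3 against 863 ± 16.5 CPM. Lama4 and Itgb1 did not pass the test.

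Anpep encodes aminopeptidase N, or CD13, a membrane peptidase used to mark brain pericytes and also present on fibroblasts and myeloid cells. It was at 56.2, 65.9 and 50.2 CPM in intermediate libraries and 21.1, 25.3 and 19.8 CPM in smooth muscle libraries. Progenitor libraries held the most, at 74.1, 77.4 and 83.0 CPM, and preadipocyte libraries the least, at 15.6, 9.49 and 7.24 CPM. The populations did not overlap. Intermediate libraries exceeded smooth muscle by 1.38 ± 0.21 on the log2 scale (edgeR adjusted p = 0.000127), and the difference from progenitor libraries, -0.44 ± 0.21, did not pass the test (edgeR adjusted p = 0.124). It was 3.54-fold lower in smooth muscle than in progenitor libraries.

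Among 7 surface peptidases, counting Anpep, 4 were higher and 2 lower in intermediate than smooth muscle libraries (13.1% and 15.7% of all genes). With library size alone these were 4 and 3. Fap, the fibroblast activation protein gene, was at 271 ± 14.4 against 42.9 ± 6.36 CPM. Ace, the angiotensin-converting enzyme gene, was at 69.2 ± 6.06 against 30.7 ± 3.80 CPM and Mme, which encodes neprilysin, at 14.7 ± 3.65 against 6.86 ± 1.52 CPM. Dpp4, also a progenitor marker, was at 4.25 ± 1.28 against 76.6 ± 8.70 CPM. Enpep, which makes aminopeptidase A and is itself used as a pericyte marker, was at 6.88 ± 3.08 against 31.5 ± 5.28 CPM. Anpep and Enpep thus moved in opposite directions.

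Abcc9 encodes SUR2, the regulatory subunit of ATP-sensitive potassium (KATP) channels of vascular cells, whose pore is made from Kcnj8. Opening of these channels relaxes vessels. In intermediate libraries Abcc9 was at 178, 181 and 138 CPM and in smooth muscle libraries at 155, 133 and 90.6 CPM. Progenitor libraries were in the range of smooth muscle, at 135, 105 and 134 CPM, and preadipocyte libraries were at 12.3, 14.1 and 10.7 CPM. The first 3 populations were close and preadipocyte libraries were clearly lower, 13.4-fold below intermediate. The difference of intermediate minus smooth muscle was 0.39 ± 0.18 (edgeR adjusted p = 0.130) and turned to -0.10 with library size alone (edgeR adjusted p = 0.643). It was called in 5 of 23 alternatives, at an edgeR adjusted p of 0.000296 to 0.0428. The lowest of these came from both populations alone with the replicate number as a block (log2 difference 0.46). Without the block that fit gave 0.0428, and the block with all populations in the fit gave an edgeR adjusted p of 0.0897. The pairs smooth muscle and progenitor (0.02 ± 0.18) and intermediate and progenitor (0.41 ± 0.18) did not pass the test either. In the latter pair, all intermediate libraries were above all progenitor ones. An antisense gene, 5330439B14Rik, covers 158 of the 8373 exon bases of Abcc9.

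The pore gene Kcnj8 lies 16.2 kb from Abcc9 on chromosome 6 of mm10 (142564837 to 142571614 and 142587862 to 142702315, both on the minus strand), with 0 annotated genes between. It was at 109, 105 and 119.6 CPM in intermediate and 22.2, 20.2 and 30.3 CPM in smooth muscle libraries, a log2 difference of 2.20 ± 0.20 (edgeR adjusted p = 6.46e-07). Progenitor libraries had 133, 135 and 107 CPM and preadipocyte libraries 7.77, 5.08 and 4.07 CPM. Abcc8, which encodes the sister subunit SUR1 known from pancreatic beta cells and neurons, went the other way, at 3.14 ± 0.925 against 32.1 ± 5.76 CPM in intermediate and smooth muscle libraries. Kcnj11, the other pore gene, was lower too, at 0.366 ± 0.0938 against 1.89 ± 0.922 CPM. Of the 4 KATP genes, 1 was higher and 2 were lower in intermediate libraries (13.1% and 15.7% of all genes), also with library size alone.

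Higd1b and Ndufa4l2 are small genes of mitochondrial inner membrane proteins that mark pericytes in mouse single-cell atlases. Ndufa4l2 is induced by hypoxia and lowers respiration. Higd1b was near the limit of detection, with 9 to 12 counts in intermediate libraries, 31 to 48 in smooth muscle, 1 to 4 in progenitor and 5 to 9 in preadipocyte libraries. That is 1.07, 0.677 and 0.999 CPM in intermediate and 2.22, 2.04 and 3.39 CPM in smooth muscle libraries. These 2 populations did not overlap, and the log2 difference was -1.48 ± 0.40 (edgeR adjusted p = 0.0116). It missed the threshold in 4 of 22 alternatives, without intermediate replicate 2 (edgeR adjusted p = 0.119) or 3 (0.0671), without smooth muscle replicate 3 (0.0795) and without a low-count filter (0.0616). An even background, estimated per kilobase from 1223 olfactory and vomeronasal receptor genes, would give Higd1b 0.121 to 0.171 CPM in smooth muscle libraries, well under its level.

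Ndufa4l2 was at 20.1, 22.6 and 25.2 CPM in intermediate libraries and 12.3, 15.3 and 18.1 CPM in smooth muscle libraries. Progenitor libraries were at 11.6, 11.3 and 13.1 CPM. Preadipocyte libraries were at 1.30, 0.907 and 1.56 CPM, 17.9-fold below intermediate. The 3 intermediate libraries were above all others on this scale, with a log2 difference from smooth muscle of 0.57 ± 0.19 (edgeR adjusted p = 0.0340). By library size alone the 2 populations overlapped and the difference was 0.09 (edgeR adjusted p = 0.719). It also missed the threshold without smooth muscle replicate 1 (edgeR adjusted p = 0.156) or 2 (0.0845), with at least 5 CPM asked for in 3 libraries (0.0543) and with the even background subtracted (0.0738). Exons of Shmt2 on the opposite strand cover 32 of its 1095 exon bases.

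Relatives of these genes were looked at beside them. Ndufa4, the cytochrome c oxidase subunit that Ndufa4l2 resembles, was at 97.9 ± 7.76 in intermediate, 150.4 ± 22.3 in smooth muscle, 197 ± 10.8 in progenitor and 599 ± 53.9 CPM in preadipocyte libraries. It was thus highest where Ndufa4l2 was lowest. Cox4i2, the oxidase subunit isoform of lung and pericytes, was at 3.77 ± 0.285 against 10.4 ± 1.33 CPM in intermediate and smooth muscle libraries, with at most 1 CPM in every progenitor and preadipocyte library. Its log2 difference, -1.46, was near that of Higd1b. Higd1a was at 71.4 ± 3.76 against 54.4 ± 5.24 CPM, a direction that turned with library size alone (-0.09). Of 7 genes tested, which were Higd1b, Ndufa4l2, these 3, Higd2a and Cox4i1, 2 were higher and 3 lower in intermediate than smooth muscle libraries. The shares of all genes were 13.1% and 15.7%. With library size alone 0 and 5 were called, beside 1133 and 9321 of 21285 genes.

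Vtn encodes vitronectin, a secreted matrix and plasma protein made mainly in liver and, in brain, by pericytes. It was low throughout, at 4.19, 2.93 and 1.91 CPM in intermediate and 6.38, 5.47 and 8.55 CPM in smooth muscle libraries. Preadipocyte libraries, at 6.32, 7.49 and 8.24 CPM, overlapped with smooth muscle, and progenitor libraries, at 1.24, 1.09 and 2.41 CPM, overlapped with intermediate. Intermediate minus smooth muscle was -1.17 ± 0.32 (edgeR adjusted p = 0.0110). This call was lost without intermediate replicate 2 (edgeR adjusted p = 0.0953) or 3 (0.139), without smooth muscle replicate 3 (0.0625) and without a low-count filter (0.0504). Of 6 hepatocyte markers tested between intermediate and smooth muscle libraries, 0 passed by edgeR, 0 were at an unadjusted p under 0.05, and 0 passed by DESeq2 or limma-voom; with library size alone Apob was called lower (edgeR adjusted p = 0.0401). The 8 in the table summed to 3.74 to 7.36 and 7.63 to 46.4 CPM there. In preadipocyte libraries, where Vtn had its highest mean, they summed to 2.59 to 145 CPM. By edgeR, 5 of the 6 were higher there than in progenitor and 3 higher than in intermediate libraries (25.1% and 26% of all genes). DESeq2 called 1 and 0 of them, and limma-voom 0 and 0. The part of liver RNA in the level of Vtn was not tested.

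Vitronectin is bound by integrins that share the alpha V subunit. Of 6 receptor and partner genes, 1 was higher and 2 lower in intermediate than smooth muscle libraries (13.1% and 15.7% of all genes). With library size alone these were 0 and 4, beside 1133 and 9321 of 21285 genes. Itgav was at 223 ± 23.0 against 142 ± 34.2 CPM, a call that ended with library size alone (edgeR adjusted p = 0.505). Itgb3, its partner in the classical vitronectin receptor, was at 43.0 ± 5.12 against 146 ± 26.7 CPM and Itgb8 at 7.60 ± 2.06 against 18.3 ± 3.29 CPM. Itgb5, Itgb1 and Plaur did not pass the test.

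Levels of different genes can be compared per kilobase of exon. In intermediate libraries Rgs5 had the highest mean, 74.2 CPM per kb or 41.7% of the sum of the 9 members, and Rgs4 followed at 26.5; both held these places in each of the 3 libraries. Ndufa4l2 at 20.7, Abcc9 at 19.8, Mcam at 17.4 and Anpep at 13.9 CPM per kb changed places between libraries, with Mcam next after Rgs4 in replicate 1, Abcc9 in replicate 2 and Ndufa4l2 in replicate 3. Cspg4 at 2.87, Vtn at 1.48 and Higd1b at 1.08 CPM per kb were the lowest 3 in each library. In smooth muscle libraries the means of Rgs5, 126 CPM per kb, and Mcam, 122, were not separated, since Mcam was above Rgs5 in replicate 1 (125 against 115 CPM per kb) and below it in the other 2. Rgs4 at 82.5 and Cspg4 at 26.2 CPM per kb came after them in each library. Anpep led in progenitor libraries at 18.9 CPM per kb and Mcam in preadipocyte libraries at 19.2. Among genes tested with a known length, Rgs5 stood at percentile 97.6 in intermediate and 99.0 in smooth muscle libraries, while Cspg4 went from percentile 57.5 to 93.1.

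**Figure D4:**
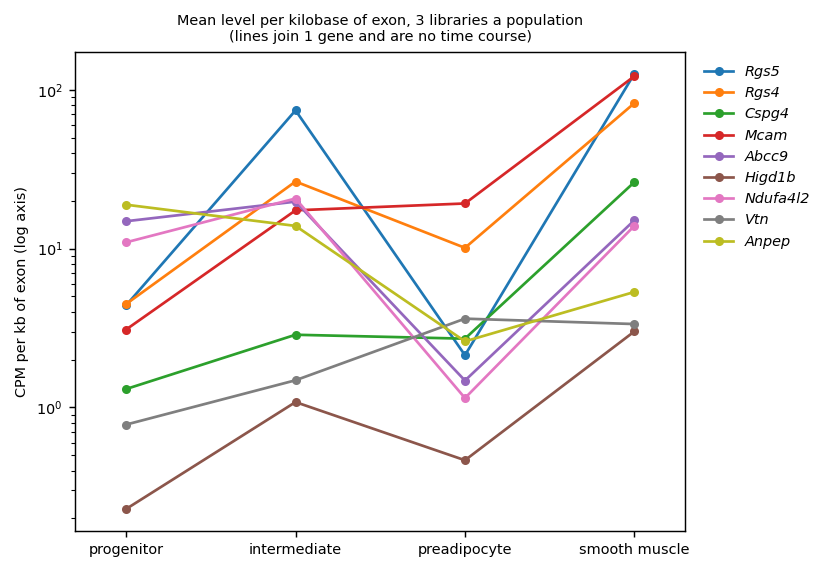
Mean CPM per kilobase of exon of the 9 markers in the 4 populations (3 libraries each, log axis, lines joining the points of a gene and standing for no time course). Rgs5 has the highest mean in intermediate libraries (74.2), Rgs5 and Mcam lie close together in smooth muscle libraries (126 and 122), and the highest mean is that of Anpep in progenitor (18.9) and of Mcam in preadipocyte libraries (19.2).

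The remaining population pairs place the members in the series. All 9 differed among the 4 populations by edgeR's F test at an adjusted p under 0.05, as did 79.8% of all genes. Against progenitor libraries, 6 members were higher in intermediate and 0 lower, where 14.1% and 13.4% of all genes were. Those 6 were Rgs5, Rgs4, Mcam, Higd1b, Cspg4 and Ndufa4l2. At an unadjusted p under 0.05 by edgeR, 1 was lower, and by DESeq2 or limma-voom 0 were called lower. Anpep was that gene, and it was called lower in 5 of 23 alternatives (edgeR adjusted p = 0.0186 to 0.0303). Against preadipocyte libraries, 6 were higher in intermediate and 1, Vtn, was lower (31.1% and 26% of all genes). Of the 6, Higd1b was at an edgeR adjusted p of 0.0396 and passed in only 5 of the 20 alternatives that tested it, where its adjusted p ran from 0.0370 to 0.188. By DESeq2 and by limma-voom, 5 members were higher. The other 5, Rgs5, Rgs4, Abcc9, Ndufa4l2 and Anpep, passed in each of 23 alternatives. Smooth muscle libraries exceeded progenitor in 6 members and were lower in 1, Anpep (30.5% and 23.6% of all genes). With library size alone Abcc9 and Ndufa4l2 were also called higher there. Against preadipocyte libraries they exceeded in 8 members, all but Vtn, and were lower in 0 (40.7% and 25.9% of all genes), as also at an unadjusted p under 0.05 and by DESeq2 and limma-voom. Preadipocyte and progenitor libraries divided the members evenly: Rgs4, Cspg4, Mcam and Vtn were higher in preadipocyte and Rgs5, Abcc9, Ndufa4l2 and Anpep in progenitor libraries (25.1% and 25.9% of all genes). These pairs share libraries, so their results are not independent of each other.

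Other mural cell genes divided in a like way between intermediate and smooth muscle libraries. Of 22, 3 were higher and 12 lower in intermediate libraries (13.1% and 15.7% of all genes), with a median log2 difference of -0.82. With library size alone these were 3 and 17. The 3 were Kcnj8, Steap4 and Ednra, the endothelin receptor A gene, at 257 ± 13.3 against 114.5 ± 22.9 CPM. Steap4, a metalloreductase, was at 38.1 ± 4.19 against 12.3 ± 1.02 CPM. It was higher still in progenitor (139 ± 22.6 CPM) and preadipocyte libraries (113 ± 27.9 CPM). Tinagl1, a matrix protein of vessels, was at 22.1 ± 6.02 against 277 ± 6.24 CPM and Des, which encodes desmin, at 2.23 ± 0.485 against 19.3 ± 1.89 CPM. Pdgfrb, the PDGF receptor by which mural cells are recruited, was at 521 ± 50.2 against 508 ± 72.6 CPM and did not pass the test, but it was called lower with library size alone (-0.45, edgeR adjusted p = 0.0338).

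Contractile genes were lower in intermediate libraries in 14 of 15 cases and higher in 0 (15.7% and 13.1% of all genes), with a median of -2.66. With library size alone these were 15 and 0. Myh11, the smooth muscle myosin heavy chain gene, was at 112 ± 35.2 against 1132 ± 209 CPM and Lmod1, an actin nucleator, at 8.81 ± 0.448 against 65.9 ± 7.82 CPM. Tpm2 was at 116 ± 18.9 against 565 ± 60.2 CPM and Mylk, the myosin light chain kinase gene, at 41.4 ± 8.33 against 258 ± 5.67 CPM. The median of the pericyte markers, -1.17, lay between those of the mural and contractile lists.

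**Figure D5:**
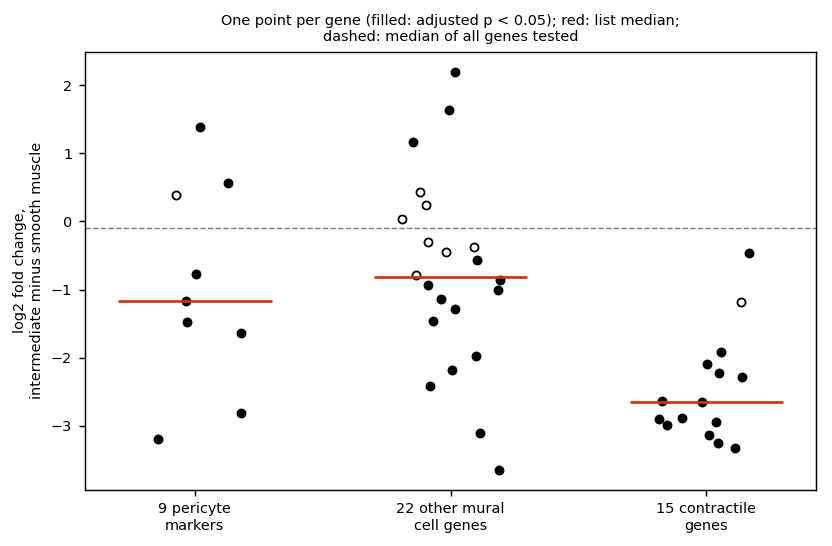
Log2 fold change, intermediate minus smooth muscle, of the 9 pericyte markers, 22 other mural cell genes and 15 contractile genes, 1 point per gene (filled where the adjusted p was under 0.05), red bars for list medians and a dashed line for the median of all genes tested. Medians are -1.17, -0.82 and -2.66 beside -0.10 for all genes.

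Genes whose levels ran most like a member over the 12 libraries were found by Pearson's r of log2 CPM among 7843 protein-coding genes. These values describe 12 libraries of 4 populations and carry no test. Rgs5 ran with Gucy1b1 (r = 0.996), which encodes a subunit of the nitric oxide receptor, with the transcription factor gene Ets1 (0.992) and with Notch3 (0.991). The genes nearest to Rgs4 were the contractile genes Myh11 (0.992), Acta2 (0.990) and Actg2 (0.988). How closely Rgs5 ran with these is not given, so no contrast between Rgs5 and Rgs4 is drawn. Cspg4 ran with Ncam1 (0.988), Gpc4 (0.983) and Rassf3 (0.979), and Mcam with Tinagl1 (0.980), Cux1 (0.976) and Ctsc (0.971). Abcc9 ran with Slc44a2 (0.995), Pkd1 (0.994) and Fn1 (0.993), and Ndufa4l2 with Crispld2 (0.986), Igfbp7 (0.983) and Hmcn1 (0.982). Anpep ran with Limk1 (0.989), Ddr2 (0.984) and Jmjd1c (0.983). For the low genes the values were lower, with Acta2 (0.963) and Mylk (0.944) beside Higd1b and Lrrc8b (0.919), Cav2 (0.918) and Sfmbt1 (0.915) beside Vtn. With library size alone, 15 of these 26 genes were found again.

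Most Schwann, neuronal and mesothelial markers were higher in smooth muscle than in intermediate libraries, while few markers of the further cell types below were called. Schwann and glial markers summed to 206 to 254 CPM in smooth muscle and 33.7 to 36.9 in intermediate libraries. Of these 8, 6 were lower and 1 higher in intermediate. Neuronal markers summed to 766 to 1058 and 23.3 to 36.8 CPM, with 8 of 8 lower. Mesothelial markers summed to 1217 to 1697 and 23.6 to 87.6 CPM, with 8 of 8 lower. Endothelial markers summed to 198 to 301 and 103 to 222 CPM, with 2 of 12 lower, Esam and Kdr, and 1 higher, Erg. Over all genes, 15.7% were lower and 13.1% higher in intermediate libraries, so the endothelial calls were near that share. Pecam1, an endothelial gene that mural cells lack, was at 19.9 ± 5.14 and 21.7 ± 5.53 CPM. Cardiomyocyte markers summed to 79.4 to 93.4 and 18.9 to 53.5 CPM, with 2 of 7 lower. Macrophage markers (27.4 to 38.2 and 28.2 to 33.9 CPM, 1 of 10 higher) and red blood cell markers (4.96 to 32.8 and 2.93 to 10.9 CPM, 0 of 6 called by edgeR, DESeq2 or limma-voom, and 0 at an unadjusted p under 0.05) overlapped between both. With library size alone S100b, Erg and Lyz2, the Schwann, endothelial and macrophage genes called higher, no longer passed (edgeR adjusted p = 0.342, 0.0818 and 0.101). Apart from the haemoglobin gene Hba-a2, no marker of these lists was at 0 in all 3 libraries of either population. Receptor genes used as the even background held 774 to 1117 CPM by library size in smooth muscle and 133 to 345 in intermediate libraries. With that background subtracted, 6 members were called lower in intermediate libraries. The amount was small beside the levels, for Cspg4 1.71 to 2.41 CPM in smooth muscle libraries that held 275 to 374 CPM. The subtraction could hardly change such a call and does not measure RNA of other cell types. The part of Schwann, neuronal and mesothelial RNA in the difference of Cspg4, Mcam or any other member was not tested.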

How the data were processed

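Per the labels' protocols, poly(A) RNA of the sorted cells was amplified with SMART-Seq v4 chemistry. The submitters' processing notes name mm10, DESeq2 1.26.0 and STAR 2.5.2a. How reads were counted, and on which annotation and strand, is not given in the sources used here. Unscaled whole-number counts per gene, as deposited, were the input. GENCODE M21 named 36480 of 36512 identifiers.

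Here, filterByExpr left 21285 genes. After TMM scaling, edgeR 4.0.16 (R 4.3.3, glmQLFit and glmQLFTest) was used in 1 model of 12 libraries and 4 groups, two-sided, with calls at 0.05 after Benjamini-Hochberg adjustment over all genes. Replicates varied by a common biological coefficient of 0.2. SEs are those implied by the F statistic. A count of 0 allows up to 3 counts, or 0.175 to 0.256 CPM by library size, which covers counting error only. Fits were tried on simulated counts. Replicates correlated at 0.963 to 0.986 and were separate libraries. Same-numbered intermediate and smooth muscle libraries deviated from their group means together, at correlations of 0.184 to 0.545 in 3 of 3 pairs. No other 2 populations had this in all 3 same-numbered pairs. Pairs of differing number ran from -0.486 to 0.321 over all populations, with intermediate 2 and smooth muscle 1 at 0.308. With 3 libraries a group, these values cannot settle whether the libraries are paired. The main model took no pairing into account, and a replicate block was run as an alternative.

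The members and 19 further gene lists were chosen with earlier results of these data known. All members are named. Of other lists, up to 4 genes with the smallest p are named, and further partners and relatives of a member may be. Exceptions chosen after their values were seen are Acta2, Tagln, Ednra, Pdgfrb, Pecam1, Kdr, Erg, S100b, Lyz2 and Apob. Nppa and Ahsp are not analysed here. Of the vitronectin partners and the genes most like Higd1b, 1 gene each is not reported here. Alternatives were 2 other scalings, DESeq2 1.42.0, limma-voom (limma 3.58.1), other filters, the compared groups alone, a replicate block, protein-coding genes alone, an even background subtracted, and leaving out each library. The compared groups alone with the replicate block were added after the data were seen.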

Additional observations from a re-analysis of the deposited data

How the results depend on the processing

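Under 23 alternatives, Rgs4, Cspg4, Mcam and Anpep kept direction and call in each. Of 6 members lower in intermediate than smooth muscle libraries, 3 to 6 were called when single libraries were left out. The 2 higher ones came to 1 with library size alone, with at least 5 CPM in 3 libraries and with the even background subtracted, and to 1 to 3 with single libraries left out. All calls together, 8, ranged from 5 to 9 with single libraries left out. Abcc9 turned from 0.39 to -0.10 with library size alone, and genes called in this comparison rose from 6127 to 10454. TMM factors differ between these populations; the cause of the other changes was not tested. The median of all genes moved by 0.26 without a low-count filter and by 0.15 to 0.23 without progenitor replicate 2 or any 1 intermediate library, where 59.4% to 64.1% of calls were higher in intermediate libraries. With the replicate block, 8 members and 5941 genes were called; with the block and the compared groups alone, chosen after seeing the data, 9 and 9018. The block changed no member's call in this comparison against the same fit without it. Members called in intermediate against preadipocyte libraries came to 6 in place of 7 in 17 of 23 alternatives. Depth limits Higd1b, at 1 to 48 counts.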

Other observations

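Hypoxia response genes, which are listed because Ndufa4l2 is a target of the hypoxia-inducible factor, went both ways between intermediate and smooth muscle libraries. Of 12, 3 were higher and 5 lower in intermediate libraries by edgeR (13.1% and 15.7% of all genes). With library size alone these were 1 and 7, beside 1133 and 9321 of 21285 genes. Egln3, a prolyl hydroxylase that marks the factor for decay, was at 2.49 ± 0.256 against 33.7 ± 9.34 CPM (SD, n = 3). Car9, a carbonic anhydrase, was at 0.800 ± 0.222 against 4.61 ± 0.616 CPM, and Bnip3, a mitophagy receptor, at 2.56 ± 0.693 against 10.4 ± 1.17 CPM. P4ha1, a collagen prolyl hydroxylase, went the other way, at 308 ± 4.92 against 103 ± 3.26 CPM.

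Progenitor markers also divided, with 3 of 8 higher and 4 lower in intermediate than smooth muscle libraries (13.1% and 15.7% of all genes). The counts were the same with library size alone. Pdgfra and Pi16 were higher by 3.15 ± 0.17 and 3.35 ± 0.27 on the log2 scale (SE), and Dpp4 and Bmp7 differed by -4.18 ± 0.25 and -3.14 ± 0.28. Preadipocyte markers were higher in intermediate than smooth muscle libraries in 6 of 8 cases and lower in 0 (13.1% and 15.7% of all genes). With library size alone these were 4 and 0. Among them, Lpl, the lipoprotein lipase gene, was at 238 ± 21.5 against 49.4 ± 5.15 CPM, Adipoq at 12.9 ± 1.50 against 1.45 ± 0.803 CPM, Pparg, the main transcription factor gene of fat cells, at 8.23 ± 0.999 against 3.72 ± 1.13 CPM and Plin1 at 3.47 ± 0.396 against 0.915 ± 0.573 CPM. Preadipocyte libraries held far more of each, at 2025 ± 450.5, 953 ± 279, 295 ± 95.3 and 270.1 ± 109 CPM. Progenitor libraries also held more of each than intermediate, at 1513 ± 53.1, 59.6 ± 16.6, 54.9 ± 3.32 and 18.2 ± 2.78 CPM. Against progenitor libraries, 0 of the 8 were higher in intermediate and 6 lower (14.1% and 13.4% of all genes). At an unadjusted p under 0.05 by edgeR, and by DESeq2 or limma-voom, 0 were higher too.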
